A study of Homo sapiens with 4 samples.

Results

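The genes described here encode the transforming growth factor beta (TGF-beta) and bone morphogenetic protein (BMP) pathway, and they were compared between HLE cells that stably express CYR61 and HLE cells that stably carry a vector. HLE is an established human hepatocellular carcinoma line, and CYR61, whose current symbol is CCN1, is a CCN family protein that cells secrete into their matrix. The members are a list of 44 named ligands, receptors, SMADs, latent binding proteins, co-regulators and feedback or ID target genes, and all 44 were matched to an Ensembl identifier by symbol among the 20286 identifiers deposited. Of these, 40 had a mean of at least 1 CPM, the count scaled to library size, over the 4 libraries and were kept. Just inside that limit lay TGFB3, with a mean of 2.62 CPM, and SMAD9, with 2.69 CPM, and just outside it lay BMP4, with 0.617 CPM.

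RNA was sequenced from 2 cultures of CYR61-expressing cells and 2 cultures of vector cells, all grown in medium with fetal bovine serum and without further treatment. Each culture was taken separately from the whole stable population of its line. The p-values thus measure the spread between cultures together with their libraries, and not between separately made lines. The sources used here do not give the promoter that drives CYR61. The study places CYR61 downstream of TGF-beta and YAP. The comparison asks how the genes of the TGF-beta and BMP pathway differ when CYR61 is raised above its level in vector cells.

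TGF-beta is secreted in a latent complex with latent TGF-beta binding proteins (LTBPs) and, once released, binds a pair of type II and type I receptor kinases that phosphorylate SMAD2 and SMAD3. BMPs act through related receptors on SMAD1, SMAD5 and SMAD9, and both branches use SMAD4 to enter the nucleus and regulate target genes. Several targets, such as SMAD6, SMAD7, BAMBI and PMEPA1, dampen the signal, and the ID genes are classical targets of the BMP branch. In liver, TGF-beta is known for restraining hepatocyte growth and for promoting matrix deposition, and BMP6 is known for controlling iron balance.

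Promoters of 5 members are shown as a description only, and no result depends on them. ID1, LTBP2, PMEPA1 and SMAD9 were lower in CYR61-expressing cells, and ID3, the paralog of ID1, was not called. Each is the RefSeq window of 250 bases before to 50 bases after the transcript start on GRCh38.p14, written 5′ to 3′ on the gene's strand. Capitals mark the SMAD-binding motif CAGAC, or GTCTG for the same motif on the other strand, and the GC-rich motif GGCGCC, which reads the same on both strands. The windows are chr20:31605039-31605338 on the plus strand for ID1, chr1:23559452-23559751 on the minus strand for ID3, chr14:74612188-74612487 on the minus strand for LTBP2, chr20:57709966-57710265 on the minus strand for PMEPA1 and chr13:36920189-36920488 on the minus strand for SMAD9. PMEPA1 has 4 windows in the table, and the one with most CAGAC motifs is shown.
ID1: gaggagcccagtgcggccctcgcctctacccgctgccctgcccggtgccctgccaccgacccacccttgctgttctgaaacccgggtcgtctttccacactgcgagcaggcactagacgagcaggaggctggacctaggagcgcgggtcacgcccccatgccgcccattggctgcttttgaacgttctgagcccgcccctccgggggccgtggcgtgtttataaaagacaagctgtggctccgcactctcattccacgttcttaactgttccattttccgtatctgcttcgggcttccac
ID3: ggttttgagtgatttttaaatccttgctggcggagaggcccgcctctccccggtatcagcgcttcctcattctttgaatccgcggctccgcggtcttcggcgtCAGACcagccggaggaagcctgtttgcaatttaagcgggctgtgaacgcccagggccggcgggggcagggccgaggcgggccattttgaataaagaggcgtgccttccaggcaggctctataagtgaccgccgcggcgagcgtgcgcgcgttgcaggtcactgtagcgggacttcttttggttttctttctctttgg
LTBP2: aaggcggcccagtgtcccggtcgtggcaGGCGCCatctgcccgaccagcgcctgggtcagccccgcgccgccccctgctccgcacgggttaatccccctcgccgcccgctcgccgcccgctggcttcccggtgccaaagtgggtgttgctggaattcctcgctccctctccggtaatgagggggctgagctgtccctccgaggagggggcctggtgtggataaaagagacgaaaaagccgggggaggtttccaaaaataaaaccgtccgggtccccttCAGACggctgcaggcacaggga
PMEPA1: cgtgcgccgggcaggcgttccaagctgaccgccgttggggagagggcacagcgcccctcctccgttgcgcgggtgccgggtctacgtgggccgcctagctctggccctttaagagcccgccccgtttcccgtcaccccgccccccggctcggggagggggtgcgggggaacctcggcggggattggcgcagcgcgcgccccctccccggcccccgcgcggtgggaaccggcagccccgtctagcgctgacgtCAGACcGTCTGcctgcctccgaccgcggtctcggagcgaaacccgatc
SMAD9: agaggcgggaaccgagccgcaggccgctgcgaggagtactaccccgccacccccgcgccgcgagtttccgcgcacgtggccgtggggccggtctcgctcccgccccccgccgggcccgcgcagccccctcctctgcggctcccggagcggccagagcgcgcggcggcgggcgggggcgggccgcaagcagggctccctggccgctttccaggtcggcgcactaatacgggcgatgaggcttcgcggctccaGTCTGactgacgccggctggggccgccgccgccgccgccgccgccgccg

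The ID1 window held neither motif, and the ID3 window held CAGAC once, starting 147 bases before the transcript start. The PMEPA1 window held it on both strands within the first bases of the transcript, at positions 3 and 9, and the SMAD9 window held it at position 2. The LTBP2 window held GGCGCC at 222 bases before the start and CAGAC at position 29. RefSeq windows were found for 36 of the 40 kept members, all but BMP1, BMP2, NOG and SKI, and of these 82 windows, 42 held CAGAC and 19 held GGCGCC. Of 35116 RefSeq windows of 300 bases, 45.3% held CAGAC and 19.2% held GGCGCC. Among the members lower in CYR61-expressing cells, 8 of 14 windows held CAGAC and 4 held GGCGCC, and among the members not called 34 of 68 held CAGAC and 15 held GGCGCC. A match is a description of the letters and not of binding. Sequence beyond these windows was not searched, so a window without a motif does not show that the gene lacks one.

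The libraries held 21388465 and 16186988 estimated counts in CYR61-expressing cells and 19118548 and 21588822 in vector cells. CYR61 itself measured 8091 and 8620 CPM in CYR61-expressing cells and 221 and 218 CPM in vector cells, a log2 fold change of 5.25, though gene counts cannot separate the introduced from the endogenous gene. Marker genes were mixed within several classes and low throughout the fetal liver and endothelial ones. Of the mesenchymal markers, VIM was at 1496 and 1770 CPM in CYR61-expressing cells and 1958 and 1706 CPM in vector cells and CDH2 at 49.7 to 59.7 CPM over the 4 libraries, while SPARC did not exceed 0.106 CPM. Of the epithelial markers, KRT8 and KRT18, which share exon bases on opposite strands, had 1055 to 3243 CPM, while CDH1 had 1.04 to 2.61 CPM and EPCAM 0.319 to 1.36 CPM. Of 8 hepatocyte markers, ALB, APOB and TTR had 0 counts in all 4 libraries, APOA1, CYP3A4 and ASGR1 had at most 0.159 CPM, SERPINA1 had 0.744 to 1.13 CPM and HNF4A 3.57 to 5.79 CPM. The fetal liver markers AFP, GPC3 and DLK1 had at most 0.106 CPM. KDR and CD3E were at 0, and of the other endothelial, leukocyte and fibroblast markers CD68 (48.1 to 67.2 CPM), COL1A1 (22.9 to 31 CPM) and PDGFRB (11 to 14.8 CPM) exceeded 2 CPM. Part of the spread within each group followed GC content. Over 10364 genes, which are not independent replicates, Spearman's rho with GC content was 0.80 for CYR61 culture 2 minus culture 1 and -0.75 for vector culture 2 minus culture 1, and it was -0.18 for the difference between groups.

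Of the 40 kept members, 7 fell and 0 rose in CYR61-expressing cells by edgeR's quasi-likelihood test with Benjamini-Hochberg adjustment over 12698 genes at a threshold of 0.05. The 7 were TSC22D1, ID1, PMEPA1, NOG, SMAD9, LTBP4 and LTBP2. Over all tested genes, 6.39% were called in either direction, 4.56% lower and 1.83% higher, and 17.5% of the kept members were called lower. In these bulk cultures, fewer cells that express a gene and less of its RNA per cell cannot be told apart. At an unadjusted p below 0.05, 13 members were lower and 1 higher, beside 13.2% and 9.77% of all tested genes. DESeq2 called 7 members lower and 0 higher, with 6 of the lower ones shared and BMP6 in place of LTBP2. Of the 12698 genes, it called 589 lower and 356 higher. Without CYR61 culture 1, edgeR called 3 lower, namely TSC22D1, ID1 and SMAD9, and 1 higher. The median log2 fold change was -0.22 over the 40 members and -0.006 over all tested genes, with 30 members below 0 and 10 above. Both CYR61 libraries lay below both vector libraries for 24 members (60%) and above both for 4 (10%), against 27.7% and 23.9% of all tested genes, 51.5% in either direction. The 7 called members have no exon bases in common with another deposited identifier.

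**Figure D1:**
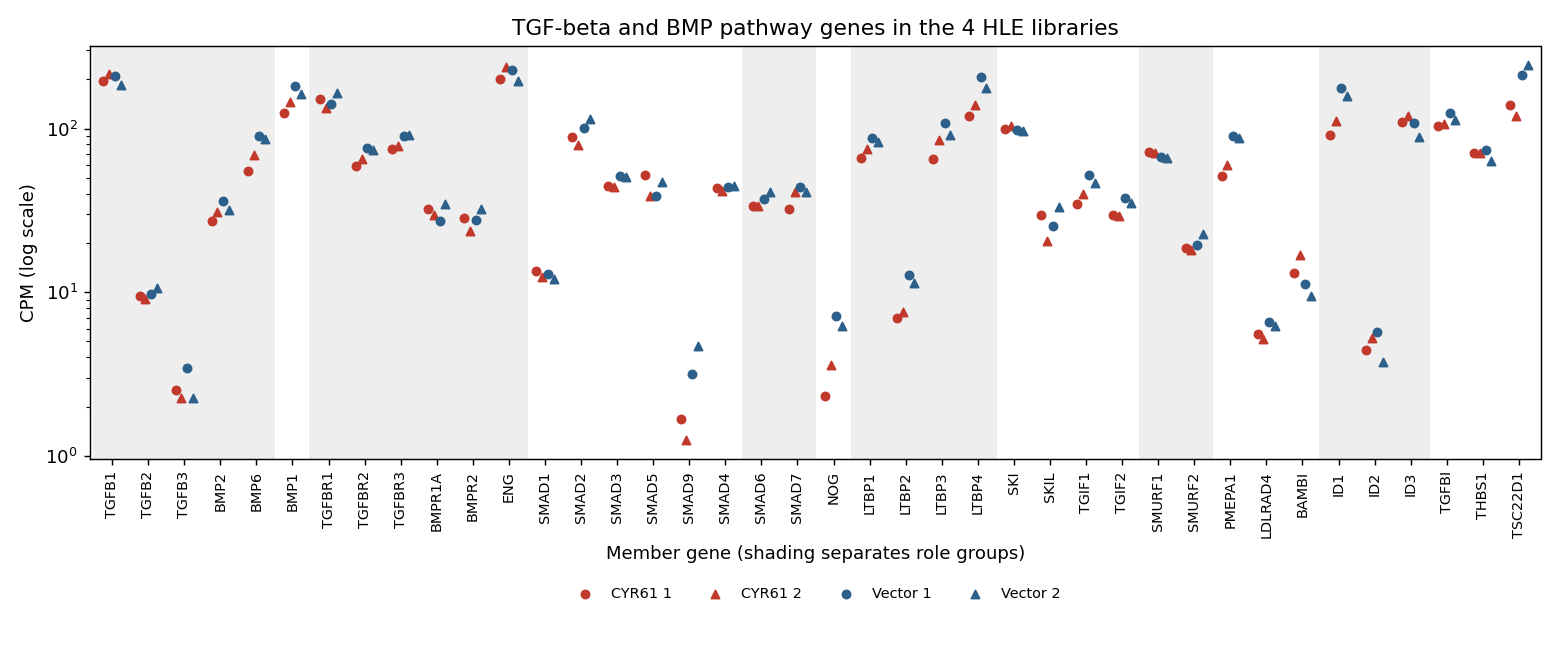
CPM on a log axis for the 40 kept members, each with its 2 CYR61 libraries (red) left of its 2 vector libraries (blue), circles for culture 1 and triangles for culture 2. SMAD9, with 1.25 to 1.67 CPM in CYR61 cells and 3.19 to 4.67 CPM in vector cells, and NOG stand out as low genes with groups apart, while TGFB1, near 200 CPM, overlaps.

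By class, edgeR called none of the 5 kept ligand genes, nor BMP1, nor any of the 6 receptor genes. Of the other classes, 1 of 8 SMADs, 2 of 4 latent binding proteins, 1 of 3 ID genes and 3 of the other 13 members fell. Over all tested genes, edgeR called 4.56% lower and 1.83% higher, and classes this small cannot show a departure from these shares by 1 call or none. At an unadjusted p below 0.05, 1 ligand gene and BMP1 were lower and 0 receptor genes, beside 13.2% of all tested genes lower and 9.77% higher. DESeq2 called 1 ligand gene and 0 receptor genes, beside 589 genes lower and 356 higher of 12698. The class medians of the log2 fold change were -0.24 for ligands with BMP1, -0.15 for receptors, -0.21 for SMADs, -0.49 for latent binding proteins and 0.04 for ID genes. It was -0.22 for the 13 co-regulators, antagonists, feedback genes and other targets. These medians are descriptions, and differences between classes were not tested.

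**Figure D2:**
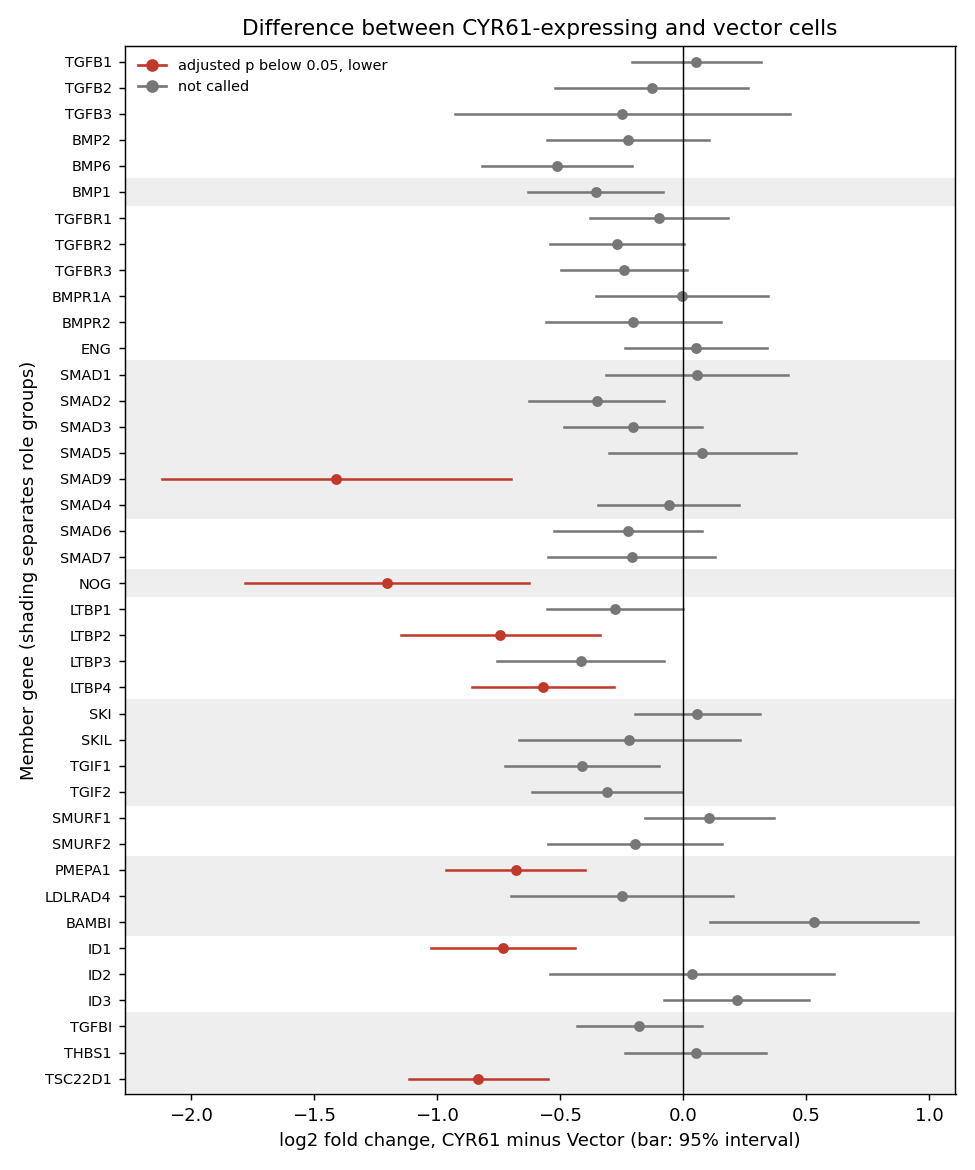
Log2 fold change (CYR61 minus vector) of the 40 kept members with its 95% interval, ordered by role, red where the edgeR adjusted p was below 0.05. SMAD9 at -1.41 and NOG at -1.20 lie farthest below 0, and BAMBI at 0.53 lies farthest above it.

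Among the ligands, TGFB1, the form made by most cells, was at 195 and 215 CPM in CYR61-expressing cells and at 209 and 186 CPM in vector cells, so the groups overlapped. Its log2 fold change was 0.05, with a 95% interval of -0.21 to 0.31. Per kilobase of transcript, TGFB1 made up 96.1% and 96.6% of the summed level of TGFB1, TGFB2 and TGFB3 in CYR61-expressing cells and 95.8% and 95.7% in vector cells. TGFB2 was at 9.15 to 9.44 CPM in CYR61-expressing cells and at 9.71 to 10.6 CPM in vector cells, and TGFB3 at 2.26 to 2.51 CPM in CYR61-expressing cells and 2.26 to 3.45 CPM in vector cells. Neither was called, with intervals of the log2 fold change of -0.52 to 0.26 for TGFB2 and -0.93 to 0.43 for TGFB3. TGFB1 overlaps the antisense gene HNRNPUL1 in 215 exon bases, and whether the counts used strand is not known.

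BMP6, the BMP of highest level per kilobase here, was at 55.2 and 69 CPM in CYR61-expressing cells and at 90.2 and 86.9 CPM in vector cells. The groups were apart, but the difference missed the threshold, with a log2 fold change of -0.51 (95% interval -0.82 to -0.21, edgeR adjusted p = 0.054). BMP6 passed by DESeq2 (adjusted p = 0.0335), without a filter on low counts (edgeR adjusted p = 0.00564) and with the GC trend removed (0.00217). It missed the threshold with RLE size factors (edgeR adjusted p = 0.0703), with library size alone (0.0593) and with the replicate number as a block (0.264). With 1 library left out, its log2 fold change ran from -0.68 (without CYR61 culture 2) to -0.35 (without CYR61 culture 1). BMP2 was at 27.2 and 30.9 CPM in CYR61-expressing cells and at 36 and 31.9 CPM in vector cells, with a log2 fold change of -0.23 (95% interval -0.55 to 0.10). BMP4, which lay outside the limit of 1 CPM, had 21 and 15 counts in CYR61-expressing cells and 7 and 4 counts in vector cells. Its log2 fold change was 1.80 (95% interval 0.59 to 3.02), not called by edgeR (adjusted p = 0.0817) and called higher with the GC trend removed (0.0229). BMP7 had 0 counts in all 4 libraries. Despite its name, BMP1 is a metalloprotease that trims procollagens and frees growth factors from the matrix. BMP1 was at 124 and 144 CPM in CYR61-expressing cells and at 181 and 162 CPM in vector cells, with a log2 fold change of -0.36 (95% interval -0.63 to -0.08, edgeR adjusted p = 0.117).

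Most latent binding proteins tether TGF-beta to the matrix. All 4 genes of this class were lower in both CYR61 libraries than in both vector libraries, and 2 of the 4 were called. Over all tested genes, 27.7% had groups apart in that direction and 4.56% were called lower. LTBP4 (ENSG00000090006, hg38 chromosome 19, 40592883 to 40629818, plus strand) was at 119 and 138 CPM in CYR61-expressing cells and at 206 and 176 CPM in vector cells. It fell 1.48-fold (log2 fold change -0.57 with an SE of 0.13, edgeR adjusted p = 0.0291). LTBP2 (ENSG00000119681, chromosome 14, 74498170 to 74612378, minus strand), whose product binds fibrillin microfibrils rather than latent TGF-beta, was at 6.93 and 7.52 CPM in CYR61-expressing cells and at 12.8 and 11.4 CPM in vector cells. It fell 1.67-fold (log2 fold change -0.74 with an SE of 0.18, edgeR adjusted p = 0.0395).

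The LTBP4 call was lost without CYR61 culture 1 (edgeR adjusted p = 0.143) and without vector culture 1 (0.22). The LTBP2 call was lost without CYR61 culture 1 (edgeR adjusted p = 0.122), vector culture 1 (0.207) or vector culture 2 (0.0565) and by DESeq2 (adjusted p = 0.0584). LTBP3 was at 64.8 and 84.6 CPM in CYR61-expressing cells and at 108 and 90.9 CPM in vector cells (log2 fold change -0.42, 95% interval -0.76 to -0.08, not called). It was called without a filter on low counts (edgeR adjusted p = 0.0315), but not with RLE size factors (0.165) or by DESeq2 (adjusted p = 0.154). With 1 library left out, its log2 fold change ran from -0.62 (without CYR61 culture 2) to -0.22 (without CYR61 culture 1). LTBP1 was at 65.9 and 75.2 CPM in CYR61-expressing cells and at 87.4 and 83.3 CPM in vector cells (log2 fold change -0.28, not called). LTBP4 held 47.8% and 46.4% of the summed LTBP level per kilobase in CYR61-expressing cells and 50.7% and 50% in vector cells, a share that was slightly lower in both CYR61 libraries.

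None of the receptor genes was called. The type I receptor gene TGFBR1 was at 152 and 134 CPM in CYR61-expressing cells and at 141 and 165 CPM in vector cells, with overlapping groups and a 95% interval of the log2 fold change of -0.38 to 0.18. The type II receptor gene TGFBR2 was at 59.3 and 65.1 CPM in CYR61-expressing cells and at 76.2 and 73.6 CPM in vector cells, with groups apart and a log2 fold change of -0.27 (edgeR adjusted p = 0.222). TGFBR3, encoding the co-receptor betaglycan, was at 75.4 and 78.1 CPM in CYR61-expressing cells and at 90.5 and 91 CPM in vector cells, also apart, at -0.24 (edgeR adjusted p = 0.245). The BMP receptor genes BMPR1A (log2 fold change -0.01, 95% interval -0.36 to 0.35) and BMPR2 (-0.20, -0.56 to 0.15) overlapped between groups. ENG, encoding the co-receptor endoglin, a gene best known from endothelium, had 200 and 239 CPM in CYR61-expressing cells and 227 and 196 CPM in vector cells, while the endothelial markers PECAM1 and KDR were at or near 0 and CDH5 and VWF had 0.791 to 1.58 CPM.

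Among the SMADs, SMAD9 was the called member. SMAD9 (ENSG00000120693, chromosome 13, 36844831 to 36920765, minus strand), a receptor-regulated SMAD of the BMP branch, had 36 and 20 counts in CYR61-expressing cells and 60 and 103 counts in vector cells. These are 1.67 and 1.25 CPM in CYR61-expressing cells and 3.19 and 4.67 CPM in vector cells, and the groups were apart. It fell 2.65-fold (log2 fold change -1.41 with an SE of 0.32, edgeR adjusted p = 0.0285), and the call was lost without vector culture 2 (log2 fold change -1.10, edgeR adjusted p = 0.178). SMAD9 made up 2.17% and 1.97% of the summed level per kilobase of SMAD1, SMAD5 and SMAD9 in CYR61-expressing cells and 4.78% and 6.41% in vector cells. Per kilobase it was the least abundant of the BMP-branch SMADs in these cells.

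SMAD1 was at 13.4 and 12.4 CPM in CYR61-expressing cells and at 12.8 and 12 CPM in vector cells (log2 fold change 0.06, 95% interval -0.31 to 0.43). SMAD5 was at 51.8 and 38.6 CPM in CYR61-expressing cells and at 38.5 and 47.2 CPM in vector cells (log2 fold change 0.08, 95% interval -0.30 to 0.46). Both overlapped between groups. SMAD2, of the TGF-beta branch, was at 88.6 and 79.9 CPM in CYR61-expressing cells and at 101 and 114 CPM in vector cells, apart but not called (log2 fold change -0.35, 95% interval -0.62 to -0.08). SMAD3 was at 44.7 and 43.7 CPM in CYR61-expressing cells and at 51.4 and 50.4 CPM in vector cells (log2 fold change -0.20). The shared SMAD4 differed by -0.06 on the log2 scale and overlaps another deposited identifier in 967 exon bases, so its value is uncertain. The inhibitory SMADs, which block receptor signalling, were not called. SMAD6 was at 33.4 and 33.5 CPM in CYR61-expressing cells and at 37.1 and 41 CPM in vector cells, and SMAD7 at 32.1 and 41.2 CPM in CYR61-expressing cells and at 43.7 and 41 CPM in vector cells.

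NOG encodes noggin, a secreted antagonist that binds BMPs and keeps them from their receptors. NOG (ENSG00000183691, chromosome 17, 56593699 to 56595590, plus strand) had 50 and 57 counts in CYR61-expressing cells and 135 and 138 counts in vector cells, which are 2.33 and 3.57 CPM in CYR61-expressing cells and 7.17 and 6.25 CPM in vector cells. It fell 2.3-fold (log2 fold change -1.20 with an SE of 0.26, edgeR adjusted p = 0.024), and the call was lost without CYR61 culture 1 (log2 fold change -0.89, edgeR adjusted p = 0.077). GREM1, which encodes the BMP antagonist gremlin, had 0 and 2 counts in CYR61-expressing cells and 1 count in each vector library, and it was not tested.

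PMEPA1, a membrane protein gene whose product holds back SMAD2 and SMAD3 in a feedback loop, was the called member among the membrane inhibitors. PMEPA1 (ENSG00000124225, chromosome 20, 57648392 to 57711536, minus strand) was at 51.3 and 59.5 CPM in CYR61-expressing cells and at 89.9 and 87.3 CPM in vector cells. It fell 1.6-fold (log2 fold change -0.68 with an SE of 0.13, edgeR adjusted p = 0.0124), with an edgeR adjusted p of 0.0541 without CYR61 culture 1. Its relative LDLRAD4 was at 5.54 and 5.2 CPM in CYR61-expressing cells and at 6.58 and 6.21 CPM in vector cells (log2 fold change -0.25, 95% interval -0.70 to 0.20). BAMBI, a pseudoreceptor gene, was the kept member with the highest log2 fold change, at 13.1 and 16.8 CPM in CYR61-expressing cells and at 11.1 and 9.51 CPM in vector cells. The difference of 0.53 (95% interval 0.11 to 0.95) was not called (edgeR adjusted p = 0.126). It was called with the GC trend removed (edgeR adjusted p = 0.012), but not with the replicate number as a block (0.419) or by DESeq2 (adjusted p = 0.171). With 1 library left out, the log2 fold change of BAMBI ran from 0.35 (without CYR61 culture 2) to 0.71 (without CYR61 culture 1).

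**Figure D3:**
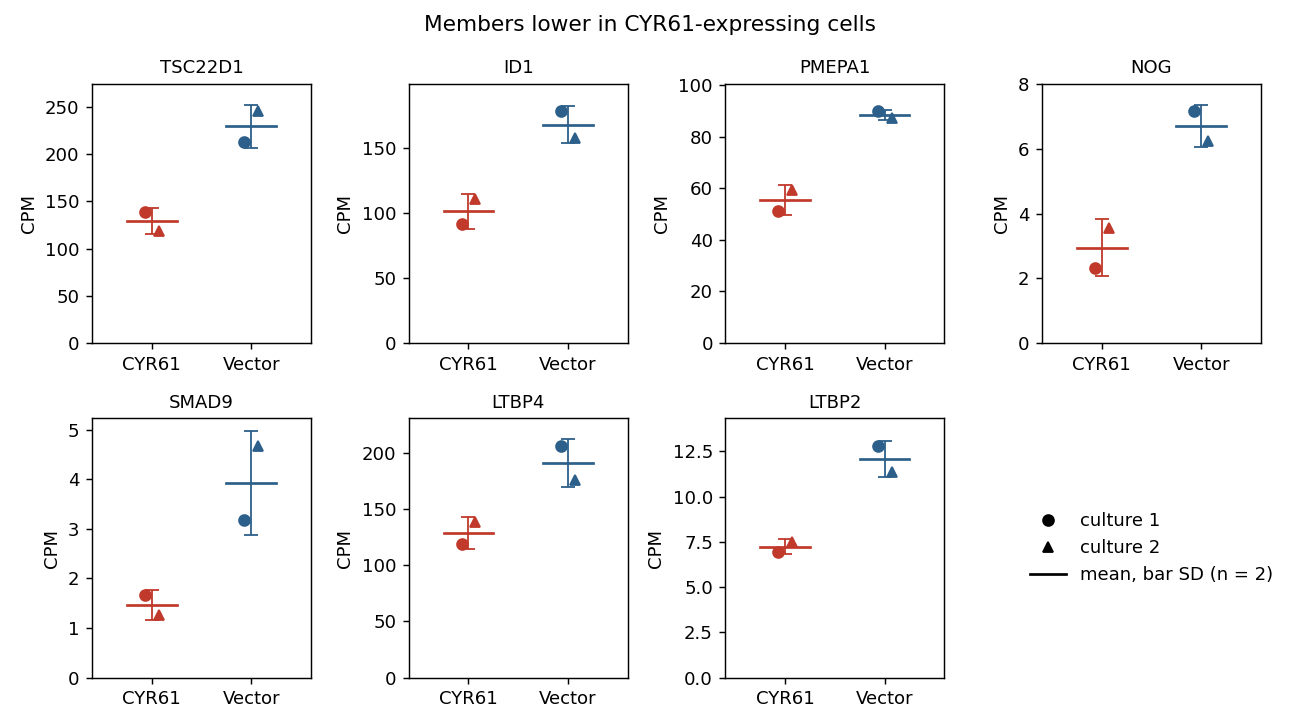
CPM (axis from 0) of the 7 members called lower, with CYR61 left and vector right, circles for culture 1, triangles for culture 2, lines for the mean and bars for the SD of 2 cultures. In every panel both CYR61 points lie below both vector points, with ID1 at 91.5 and 111 CPM in CYR61 cells and 178 and 158 CPM in vector cells.

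The ID genes encode helix-loop-helix proteins that lack a DNA-binding region and block partner transcription factors. ID1 (ENSG00000125968, chromosome 20, 31605283 to 31606515, plus strand) was at 91.5 and 111 CPM in CYR61-expressing cells and at 178 and 158 CPM in vector cells. It fell 1.66-fold (101 ± 13.6 CPM in CYR61-expressing cells, 168 ± 14.4 CPM in vector cells, mean ± SD, n = 2 each; log2 fold change -0.73 with an SE of 0.13, edgeR adjusted p = 0.0101) and was also called in each alternative fit run. ID3 was not called, at 109 and 119 CPM in CYR61-expressing cells and at 108 and 88.2 CPM in vector cells (log2 fold change 0.22, 95% interval -0.08 to 0.51, edgeR adjusted p = 0.361). The intervals of the log2 fold change for ID1 (-1.02 to -0.44) and ID3 do not overlap, and the ratio of ID1 to ID3 in CPM was 0.838 and 0.929 in CYR61-expressing cells and 1.64 and 1.79 in vector cells. The ratio was chosen after the values were seen and was not tested. ID2 was at 4.42 and 5.26 CPM in CYR61-expressing cells and at 5.68 and 3.76 CPM in vector cells, and ID4 had no more than 3 counts in any library. ID1 thus held 45.3% and 47.8% of the summed ID level per kilobase in CYR61-expressing cells and 61.8% and 63.9% in vector cells.

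TSC22D1, a leucine zipper protein gene first described as induced by TGF-beta, had the smallest adjusted p of the members. TSC22D1 (ENSG00000102804, chromosome 13, 44432143 to 44577147, minus strand) was at 139 and 119 CPM in CYR61-expressing cells and at 214 and 246 CPM in vector cells. It fell 1.78-fold (129 ± 13.7 CPM in CYR61-expressing cells, 230 ± 22.6 CPM in vector cells, mean ± SD, n = 2 each; log2 fold change -0.83 with an SE of 0.13, edgeR adjusted p = 0.00446). TGFBI, a secreted matrix protein gene, was at 104 and 106 CPM in CYR61-expressing cells and at 124 and 113 CPM in vector cells (log2 fold change -0.18, 95% interval -0.43 to 0.08). THBS1, encoding thrombospondin, which can release latent TGF-beta, was at 71.1 and 71 CPM in CYR61-expressing cells and at 74.4 and 62.9 CPM in vector cells (log2 fold change 0.05, 95% interval -0.24 to 0.34). It overlaps the antisense gene FSIP1 in 448 exon bases.

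The nuclear co-repressors SKI and SKIL, which hold SMAD complexes inactive, and TGIF1 and TGIF2 were not called. SKI was at 98.7 and 104 CPM in CYR61-expressing cells and at 98.1 and 96.3 CPM in vector cells, a log2 fold change of 0.06 (95% interval -0.19 to 0.31). SKIL was at 29.5 and 20.5 CPM in CYR61-expressing cells and at 25.3 and 33.1 CPM in vector cells, with overlapping groups. TGIF1 was at 34.4 and 40 CPM in CYR61-expressing cells and at 52.3 and 46.7 CPM in vector cells (log2 fold change -0.41, 95% interval -0.72 to -0.10, edgeR adjusted p = 0.114). TGIF2, which shares 308 exon bases with a read-through model, was at 29.6 and 29.3 CPM in CYR61-expressing cells and at 37.8 and 35.2 CPM in vector cells (log2 fold change -0.31, edgeR adjusted p = 0.211). The ubiquitin ligase genes SMURF1 (log2 fold change 0.11) and SMURF2 (-0.20), whose products mark SMADs and receptors for degradation, were not called either, and each overlaps an antisense gene.

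After the GC trend of each library was taken out, all 7 members were called again, and 10 further kept members were called lower and 2 higher, besides BMP4, which was not kept. Of all tested genes, 29.7% were then called, 13.9% lower and 15.8% higher. The added lower members were BMP6, BMP1, TGFBR2, TGFBR3, SMAD2, LTBP1, LTBP3, SKIL, TGIF1 and TGIF2, with log2 fold changes between -0.46 and -0.25, and the higher ones were BAMBI (0.56) and ID3 (0.30). No member changed sign with the GC trend removed.

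**Figure D4:**
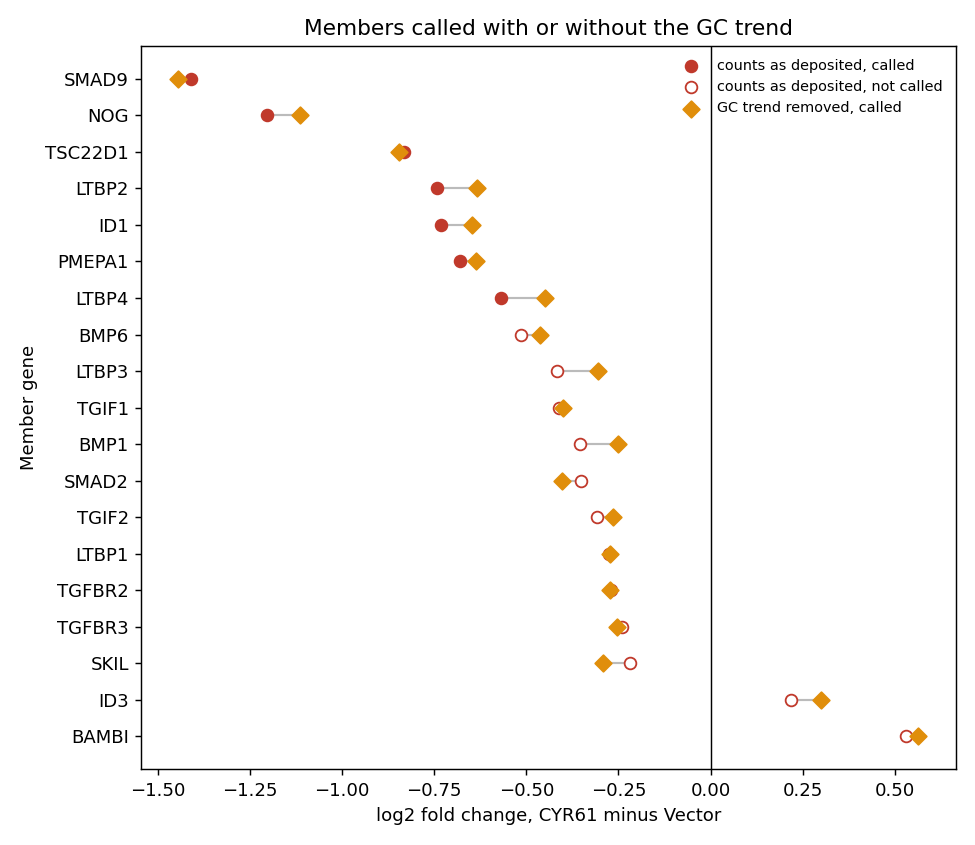
Log2 fold change (CYR61 minus vector) of the 19 members called with or without removal of the GC trend, as circles from the deposited counts (filled where called) and as diamonds after removal. The 7 filled circles and their diamonds lie close together, with LTBP4 at -0.57 and -0.45 and SMAD9 at -1.41 and -1.44.

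A further 96 genes of the pathway were listed by role, and 74 of them were tested. Of these 74, 12 fell and 1 rose, against 4.56% and 1.83% of all tested genes, and the median was -0.22 on the log2 scale, against -0.006. The calls fell mostly among TGF-beta target genes, of which 8 of 11 were lower and 0 higher (median -0.97). These counts were the same by edgeR, by DESeq2 and at an unadjusted p below 0.05. Of all tested genes, 4.56% were called lower by edgeR and 13.2% were lower at an unadjusted p below 0.05. DESeq2 called 589 of the 12698 genes lower. The list of targets was chosen with earlier results of these data known and is not independent evidence of a direction. CDKN1A, the p21 cell cycle inhibitor gene, was at 26.1 and 25.9 CPM in CYR61-expressing cells and at 86.4 and 82.4 CPM in vector cells (log2 fold change -1.70, edgeR adjusted p = 0.000103). CDKN2B, the p15 cell cycle inhibitor gene, was at 32.1 and 37.5 CPM in CYR61-expressing cells and at 72.9 and 67.5 CPM in vector cells (log2 fold change -1.01, edgeR adjusted p = 0.00226). FN1 (log2 fold change -1.48), SNAI2 (-1.35), BHLHE40 (-1.24) and JUNB (-0.97) fell as well, and several of these targets also respond to other signals. JUNB overlaps the antisense gene HOOK2 in 259 exon bases, and whether the counts used strand is not known. CCN2, a target shared with YAP, was at 56.6 and 74.1 CPM in CYR61-expressing cells and at 57.9 and 53.6 CPM in vector cells and was not called (log2 fold change 0.23, 95% interval -0.11 to 0.56).

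**Figure D5:**
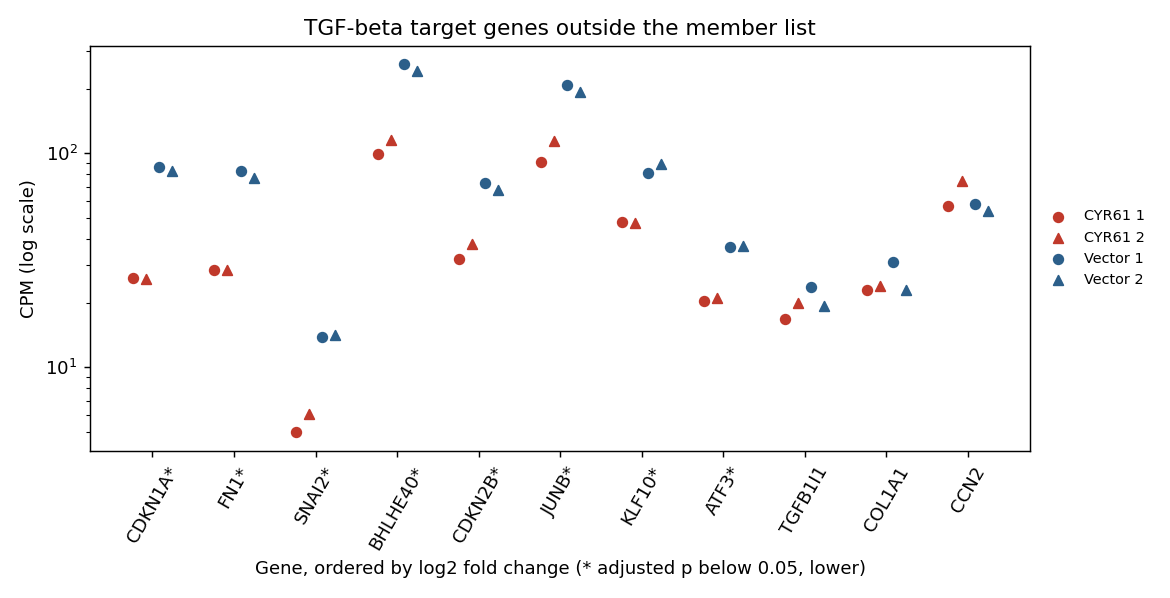
CPM on a log axis of 11 tested TGF-beta target genes outside the member list, CYR61 libraries (red) left of vector libraries (blue), ordered by log2 fold change, with asterisks for an edgeR adjusted p below 0.05. CDKN1A, at 26.1 and 25.9 CPM in CYR61 cells and 86.4 and 82.4 CPM in vector cells, lies at the left end, and CCN2 at the right end overlaps.

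Of 7 tested BMP target genes, 2 fell and 0 rose by edgeR, where 4.56% of all tested genes fell and 1.83% rose. These were HEY1, at 8.05 and 7.08 CPM in CYR61-expressing cells and 17 and 17.1 CPM in vector cells (log2 fold change -1.17, edgeR adjusted p = 0.00365), and DLX3, at 3.3 and 2.76 CPM in CYR61-expressing cells and 7.11 and 6.66 CPM in vector cells (log2 fold change -1.17, edgeR adjusted p = 0.0141). Both are transcription factor genes and were named after their values were seen. None of 17 genes of signal transduction and SMAD turnover was called by edgeR, which is near the 6.39% called over all tested genes. Their median was -0.01 on the log2 scale. At an unadjusted p below 0.05, 1 was lower and 1 higher, beside 13.2% and 9.77% of all tested genes. DESeq2 called 0 lower and 0 higher, beside 589 and 356 of the 12698 genes. DCN, encoding decorin, a matrix proteoglycan that binds TGF-beta, was the gene called higher, at 3.68 and 2.26 CPM in CYR61-expressing cells and 0.637 and 0.544 CPM in vector cells (log2 fold change 2.34, edgeR adjusted p = 0.00746). LRRC32, which encodes a cell-surface anchor of latent TGF-beta, was at 0.512 and 0.188 CPM in CYR61-expressing cells and at 1.49 CPM in each vector library (3.99-fold lower, edgeR adjusted p = 0.0422). These are 11 and 3 counts in CYR61-expressing cells and 28 and 33 counts in vector cells. The mean of LRRC32 was 0.92 CPM, below the limit set for members, and DESeq2 gave it no adjusted p. RUNX1, a transcription factor gene, was at 24.4 and 20.4 CPM in CYR61-expressing cells and at 34.3 and 38.1 CPM in vector cells (log2 fold change -0.69, edgeR adjusted p = 0.0265). LRRC32 was named after its values were seen, as was RUNX1, and both calls were lost without CYR61 culture 2 (edgeR adjusted p = 0.0949 and 0.0563) and without vector culture 2 (0.0862 and 0.126), that of LRRC32 also without vector culture 1 (0.0802).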

How the data were processed

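In all, 4 libraries, 2 per group, were analysed. For each library the authors deposited estimated counts per gene, and between 11.2% and 12% of the values were not whole numbers. Per the submitters' processing notes, TopHat2 2.1.1, Cuffdiff 1.3.0 and Cufflinks 2.2.1 were used with hg38. The sources used here do not give the counting program, the annotation or the strandedness. Counts were rounded, filtered by edgeR's filterByExpr and scaled by TMM. The quasi-likelihood test of edgeR 4.0.16 in R 4.3.3 compared the groups with no covariate, and p-values were adjusted by Benjamini-Hochberg over 12698 genes. A call is an adjusted p below 0.05. Fold changes are CYR61 over vector, the SE is the size of the log2 change over the root of its F statistic, and intervals (95%) use the same SE and cover 1 gene at a time. The code was tested on simulated data.

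Symbols came from a gene name table, and positions, GC content and transcript lengths from GENCODE 29. Levels per kilobase divide CPM by the longest principal transcript, a rough length, and no level of SMAD2 was compared since its longest model is unusually long. The GC trend was a spline with 5 degrees of freedom per library. The other alternatives were RLE size factors, library size alone, DESeq2 1.42.0, no filter, the replicate number as a block, and each library left out. The members and lists were chosen with earlier results of these data known. All kept members were named. Of the other pathway genes, CCN2 and at most 6 called genes per direction were named by rule, and 1 result is not reported here. Set tests were not run.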

Additional observations from a re-analysis of the deposited data

How the results depend on the processing

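ID1 and TSC22D1 were called lower in each alternative fit run. The number of members called lower, 7 as reported, was 7 with RLE size factors, with library size alone and with DESeq2, 17 with the GC trend removed, 12 with the GC trend removed and the replicate block, and 3 to 9 with 1 library left out. Members called higher numbered 2 with the GC trend removed, with or without the block, and 0 to 1 with 1 library left out. Over all tested genes, 579 were lower and 232 higher. The counts were 1766 and 2006 with the GC trend removed, 1436 and 1568 with the replicate block added, 1029 and 648 without a filter, 377 to 793 and 104 to 538 with 1 library left out, and DESeq2 gave 356 higher. The cause of these shifts was not tested. With 1 library left out, the lone library was assumed to vary like the other group.

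The replicate block alone left 4 members lower, with LTBP2, LTBP4 and PMEPA1 lost, and 338 genes lower and 53 higher. The numbers did not pair the cultures, since the correlation of replicate differences between groups was -0.71. A crossed block, added after the data were seen, called 23 members lower and 2 higher, and 2876 genes lower and 2748 higher.

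Signs turned for some members, most of them near 0. TGFB3 (log2 fold change -0.25) and SKIL (-0.22) were among them, about as far from 0 as the member median of -0.22. With 1 library left out, the log2 fold change ran from -0.025 to 0.14 for TGFB1, from -0.52 to 0.077 for TGFB3, from -0.21 to 0.026 for TGFBR1, from -0.16 to 0.18 for BMPR1A, from -0.080 to 0.19 for ENG, from -0.14 to 0.27 for SMAD5, from -0.50 to 0.017 for SKIL, from -0.23 to 0.36 for ID2 and from -0.060 to 0.18 for THBS1. BMPR1A was also 0.011 with RLE size factors and with DESeq2 and 0.0033 with the replicate block. Low counts limit SMAD9 and NOG, whose intervals are among the widest.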
